A study of Mus musculus with 8 samples.

Results

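Whole aorta was compared with liver across 45132 probes of a mouse long non-coding RNA and mRNA array. These were the probes, of 60915 outside the control and negative classes, that the scanner software called well above background in aorta, in liver or in both. They made up 74.1% of the probes, and the comparison used 2 of the 8 arrays of the study. The aorta sample was freshly isolated wild-type mouse aorta and the liver sample freshly isolated wild-type mouse liver. The labels give no strain, sex or age for either, do not say whether an RNA came from 1 animal or a pool, and repeat for both tissues the culture and adenovirus protocols of the cultured cells. The other 6 arrays held aortic smooth muscle cells at passage 3, all carrying an adenovirus at a multiplicity of infection of 100 for 3 days: wild-type cells with Myocd virus, Srf knockout cells with empty virus, and wild-type cells with empty virus, 2 arrays each. They served here only to show how far 2 arrays of one group lie apart and where the tissue differences stood in culture.

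The aortic wall is built mainly of smooth muscle cells between sheets of elastin, lined by endothelium and wrapped in a fibroblast-rich adventitia that often carries fat and nerves. Liver is mostly hepatocytes, which secrete plasma proteins, store and release glucose, make bile and clear ammonia and foreign compounds. Long intergenic non-coding RNAs, or lincRNAs, are transcribed between protein-coding genes and are known for low and tissue-restricted expression.

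A level is the log2 processed intensity of a probe minus the 75th percentile of its own array, so a level of 0 marks a fairly bright probe. Differences are aorta minus liver, and 2 on this scale is 4-fold. Neither tissue had a second array, so no difference between them has a replicate check or a p-value. With bulk tissue, fewer cells of a type and less RNA per cell cannot be told apart. The 75th percentile was an intensity of 364.1 in aorta, 165.3 in liver and 452.2 to 498.1 in the cultured cells. Probes well above background made up 68.9% of all in aorta, 62.2% in liver and 68.2% to 74.7% in the cultures, and 7.33% of 300 negative-control spots in aorta and 8% in liver carried the same call. The dimmest probe so called had a level of -4.42 in aorta and -3.52 in liver. No spot outside the controls was saturated. Aorta, liver and the Myocd cultures shared a slide, and the other cultures lay on another.

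The tissue labels could not be checked against tissue markers. The files pair 15 probes with RefSeq accessions, all of which matched a mouse gene, and the other 60900 carry only the maker's identifiers. Of 20 lists of marker and pathway genes, 19 had no identified member, among them those for contractile smooth muscle, extracellular matrix, endothelium, hepatocyte secreted proteins, cytochrome P450 enzymes and the urea cycle. The list of common reference genes had 11 of its 14 members.

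Aorta and liver differed widely. At least 4-fold separated them at 11561 of the 45132 probes (25.6%), with 5561 (12.3%) higher in aorta and 6000 (13.3%) lower. Between 2 arrays of one cultured group the same rule gave 135 of 43178 probes (0.313%) for the Myocd cells, 44 of 46019 (0.0956%) for the knockout cells and 155 of 44520 (0.348%) for the wild-type cells with empty virus. Among probes measured in both arrays of a pair, the robust SD of the differences was 1.37 between aorta and liver, against 0.20, 0.21 and 0.41 in those cultured pairs. The tissues were thus far more different than 2 arrays of one cultured group, but the spread between animals is not in these data. The count of tissue differences depended on the background correction. With normexp, another such correction, 5693 probes (12.6%) were 4-fold apart, 3116 of them higher in aorta and 2577 lower.

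Larger differences leaned towards aorta. At 2-fold the tissues differed at 57.6% of probes, and 9745 (21.6%) were higher in aorta and 16251 (36%) lower. At 8-fold, 11% of probes differed, of which 2933 (6.5%) were higher and 2033 (4.5%) lower. At 16-fold, 5.44% differed, of which 1474 (3.27%) were higher and 980 (2.17%) lower. The median difference over all members was -0.44, with quartiles of -1.39 and 0.73, so the middle probe was lower in aorta by that much on this scale. That balance depended on how the arrays were scaled. Of the probes 4-fold apart, 48.1% were higher in aorta after 75th percentile scaling, 57.4% after scaling to the median, 54.7% after quantile normalization of both tissues, 56.8% in the authors' deposited table and 85.3% with no scaling. The deposited table gave 40694 probes in place of 45132, each well above background on at least 4 of the 8 arrays. Its share thus differs by filter as well as by scaling. With no scaling the median difference was 0.63.

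**Figure D1:**
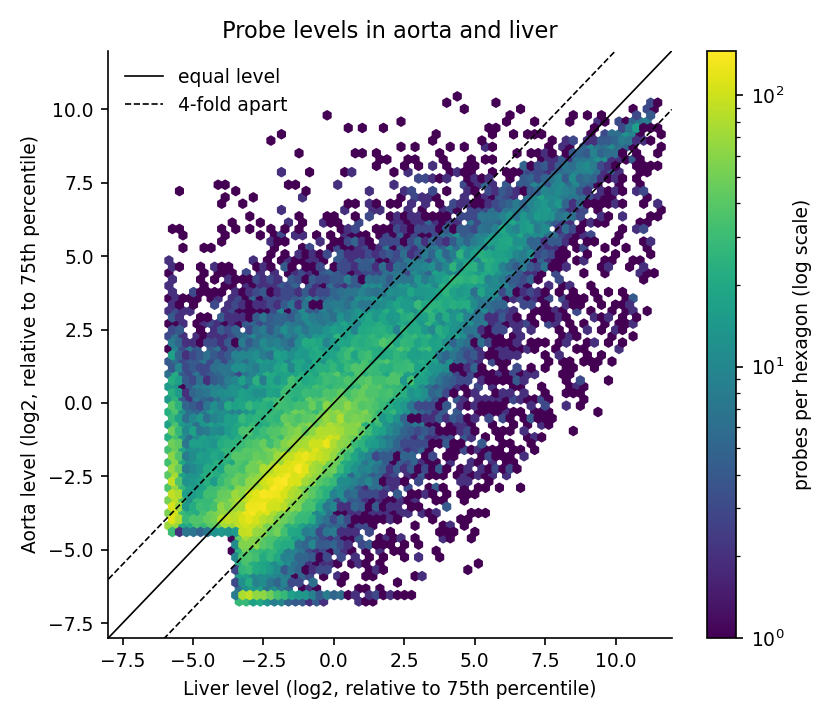
Levels of the 45132 probes well above background in at least 1 tissue, aorta on the y axis and liver on the x axis, both as log2 intensity relative to the array's 75th percentile. Colour gives the number of probes per hexagon on a log scale, and the lines mark equal levels and 4-fold differences. Beyond the 4-fold lines lie 5561 probes on the aorta side and 6000 on the liver side.

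Many of the differences were between a clear signal and one not well above background. Aorta alone was well above background at 7273 probes (16.1% of members), and liver alone at 3155 (6.99%). There a difference is a lower bound, taken against the higher of the dim probe's own level and the dimmest level called above background on that array. Of the probes at least 4-fold higher in aorta, 3493 were measured in both tissues and 2068 (37.2%) were bounds. Their median level was 1.15 in aorta and -2.64 in liver. Of the probes at least 4-fold lower in aorta, 4660 were measured in both and 1340 (22.3%) were bounds, with median levels of -2.49 in aorta and 0.51 in liver. Probes on the aorta side were thus more often without a clear liver signal than the reverse. The liver array was also dimmer, with a 75th percentile of 165.3 against 364.1. Its floor of detection was higher, at -3.52 against -4.42, and the part of both in these counts was not tested. By the positive-and-significant flag, 8.98% of probes so flagged in at least 1 tissue were detected in aorta alone and 4.99% in liver alone. Ordered by mean level over both tissues and cut into 5 bins of equal size, 3.35% of the dimmest bin were at least 4-fold higher in aorta and 9.74% lower, and 84.1% of that bin were bounds. In the bin below the brightest, 18.7% were higher and 14.4% lower. In the brightest bin, 10.8% were higher and 16.3% lower.

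The largest differences measured in both tissues belonged to probes without a gene name. Probe ASMM10P040651 had a level of 8.96 in aorta and -2.31 in liver, a difference of 11.27, or 2461.3-fold. In the 6 cultured arrays its level was at most -3.42, and it was not well above background on 1 of them, so it was bright in whole aorta and dim both in liver and in cultured aortic cells. ASMM10P047602 had 9.07 in aorta and -1.85 in liver, a difference of 10.93, with -0.76 to 0.58 in culture. On the liver side, ASMM10P012909 had -0.35 in aorta and 9.37 in liver, a difference of -9.73, with levels of up to -4.55 in culture, where it was not well above background on 3 of 6 arrays. ASMM10P026511 had -2.82 in aorta and 6.58 in liver, a difference of -9.40, with levels of up to -4.44 in culture, where it was not well above background on 5 of 6 arrays. Both liver-side probes were thus at or near background in culture.

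The 15 identified genes are mostly those used as reference genes. Each was read by 20 spots, all well above background in both tissues, so the difference has a standard error over spots of 0.01 to 0.08. This error covers the spots of 1 array only. The 7 genes higher in aorta and 8 lower had a median of -0.40, beside -0.44 over all members, and 3 were at least 4-fold higher and 1 at least 4-fold lower. With 75th percentile scaling, the difference was larger than the largest gap between 2 arrays of any cultured group for 14 of the 15. Tuba1b was the exception.

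The 3 genes with the largest differences towards aorta were Tbp, G6pd2 and Hsp90ab1. Tbp, which encodes the TATA-binding protein of the basal transcription machinery, had a level of 2.12 in aorta and -1.34 in liver. The difference was 3.46 (SE over spots 0.03), or 11.01-fold, larger than that of 95.2% of members. G6pd2, a retrocopy of the gene for glucose-6-phosphate dehydrogenase, had 2.25 in aorta and -1.0 in liver, a difference of 3.25 (SE 0.04), or 9.50-fold. Its sequence resembles that of the parent gene on the X chromosome, so which of the transcripts the probe read is uncertain. Hsp90ab1, a cytosolic chaperone of the heat shock protein 90 family, had 6.71 in aorta and 4.12 in liver, a difference of 2.59 (SE 0.02), or 6.03-fold. All 3 were at least 4-fold higher in aorta, and they were also higher in each of the 6 cultured arrays than in liver, at 2.78 to 3.17 for Tbp, 2.43 to 5.06 for G6pd2 and 7.83 to 8.61 for Hsp90ab1.

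Nono, an RNA-binding protein gene of nuclear paraspeckles, and Gusb, the lysosomal enzyme beta-glucuronidase, were also higher in aorta. Nono had a level of 4.45 in aorta and 2.51 in liver, a 3.84-fold difference. Gusb had 3.85 in aorta and 2.49 in liver, a 2.57-fold difference. The cytoskeletal genes lay closer together. Actb, the cytoplasmic beta-actin gene, had 8.63 in aorta and 7.54 in liver, a difference of 1.09 (SE 0.02), or 2.13-fold. Tuba1b, an alpha-tubulin gene, had 7.74 in aorta and 7.57 in liver, and its difference of 0.17 was smaller than the 0.52 between the 2 wild-type cultured arrays. Actb was 8.84 to 9.67 and Tuba1b 9.42 to 9.94 in culture, above both tissues.

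The 8 genes lower in aorta on this scale were B2m, Ldhal6b, Gapdh, Hprt, Tfrc, Gk, Ppia and Rpl13a. B2m, which encodes the beta-2-microglobulin chain of MHC class I molecules, had a level of 8.93 in aorta and 11.03 in liver, a difference of -2.11 (SE 0.02) that made liver 4.31-fold higher. No other of the 15 was at least 4-fold lower in aorta, and the cultures, at 8.16 to 8.47, were lower still. Ldhal6b, a lactate dehydrogenase-like gene, was dim in both tissues, at -3.23 in aorta and -1.41 in liver, a difference of -1.82 (SE 0.08). Gapdh, the glycolytic glyceraldehyde-3-phosphate dehydrogenase, had 8.61 in aorta and 10.24 in liver, a difference of -1.63 (SE 0.03), or 3.10-fold higher in liver. Its level in culture was 9.29 to 9.91, between the 2 tissues.

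Hprt, an enzyme of purine salvage, had a level of 6.33 in aorta and 7.64 in liver, a difference of -1.32 (SE 0.02). Tfrc, the receptor by which cells take up iron bound to transferrin, had 4.16 in aorta and 5.31 in liver, a difference of -1.14 (SE 0.01). Gk, the glycerol kinase that lets liver use glycerol for glucose and lipid synthesis, had 0.71 in aorta and 1.73 in liver, a difference of -1.02 (SE 0.01), and was lower in culture, at -2.21 to -1.41, than in either tissue. Ppia, a peptidyl-prolyl isomerase also called cyclophilin A, had 9.62 in aorta and 10.12 in liver, a difference of -0.50 (SE 0.04). Rpl13a, a protein of the large ribosomal subunit, had 4.57 in aorta and 4.97 in liver, a difference of -0.40 (SE 0.02). Both of these differences were close to the median of all members and had no settled direction. Ppia was higher in aorta by 0.91 after quantile normalization of both tissues and by 0.76 after that of all 8 arrays, and with no scaling Ppia was higher by 0.64, Rpl13a by 0.74 and Gk by 0.12. The other 12 genes had 1 sign under all 10 alternatives that gave a value, although Tfrc, with no scaling, had a difference of -0.0045. Changes of the filter on dim probes could not move these genes, which were well above background in both tissues. Their sizes were less settled. After quantile normalization of both tissues, B2m moved to -0.68, Gapdh to -0.28 and Hprt to -0.51, while Actb moved to 2.15 and Tuba1b to 1.11. Tbp and G6pd2 stayed near their values, at 3.53 and 3.31.

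**Figure D2:**
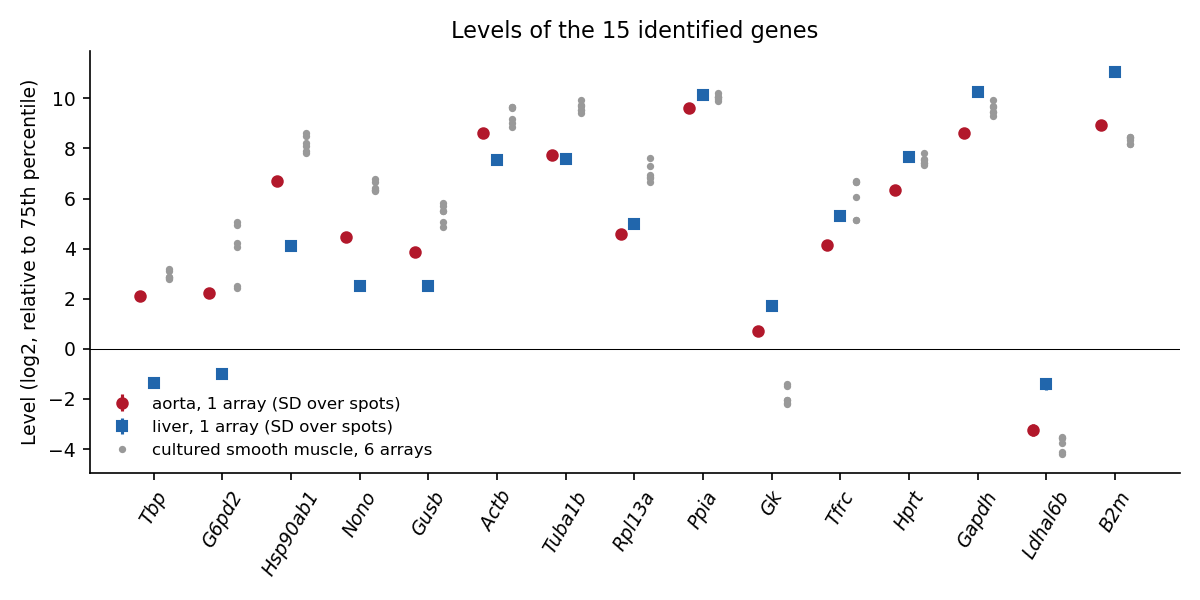
Levels of the 15 identified genes, as log2 intensity relative to the array's 75th percentile, in aorta (circles), liver (squares) and the 6 cultured arrays (small points). Bars, mostly smaller than the symbols, are the SD over the spots of 1 array. Genes run from Tbp, 3.46 higher in aorta, to B2m, with a difference of -2.11.

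Spots for both ends of Gapdh and of Pgk1, another glycolytic enzyme gene, went opposite ways in the tissues. At the 5′ end of mouse Gapdh the level was 8.18 in aorta and 7.64 in liver, 0.55 higher in aorta (SE over spots 0.04). At its 3′ end the level was 7.82 in aorta and 9.51 in liver, a difference of -1.69 (SE 0.03) that lies next to the -1.63 of the RefSeq Gapdh probe. The sign of the Gapdh difference therefore depended on which end was read. At the 5′ end of Pgk1, all 10 spots in aorta were well above background with a level of 2.09, and 0 of 9 spots in liver were, with a measured level of -4.36, so that aorta was at least 49.0-fold higher. At the 3′ end of Pgk1 the level was 6.69 in aorta and 6.86 in liver, a difference of -0.17 (SE 0.03) that turned to 0.05 after scaling to the median and 0.97 with no scaling. The cultures stood at 4.53 to 5.64 for the 5′ end of Pgk1 and 8.36 to 8.80 for its 3′ end. For mouse Gapdh they stood at 9.37 to 9.92 at the 5′ end and 8.73 to 9.63 at the 3′ end. The Gapdh 5′ end was the higher on each of the 6 cultured arrays and in aorta, and the lower only in liver. The Pgk1 5′ end was the lower on all 8 arrays.

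The array carries the same kind of spots for the rat and human genes, which can bind mouse transcripts of similar sequence. For Gapdh, the 5′ spots were higher in aorta by 5.04 for the rat and 4.97 for the human design, while the 3′ spots differed by -1.99 and -0.75. For Pgk1, the 5′ bounds were 5.41 and 3.99. The 3′ spots differed by -0.91 for the human design, and no fold is given for the rat one, with 2 of 10 spots well above background in aorta and 0 of 10 in liver. All 6 sets of 5′ spots were higher in aorta, and 5 of the 6 sets of 3′ spots were lower. The signs at the 5′ ends and at the 3′ ends of mouse and rat Gapdh held under the 4 other scale factors. With no scaling the human 3′ spots were higher in aorta, by 0.38 for Gapdh and 0.23 for Pgk1. A scale factor moves both ends of a gene alike, so the gap between the ends does not depend on it. A weaker signal at the 5′ end than at the 3′ end is a common sign of RNA fragmentation or of labelling from the 3′ end, although the labels state random priming along the whole transcript. Its part in the other differences between aorta and liver was not tested, and the files do not state where on its transcript a probe lies.

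**Figure D3:**
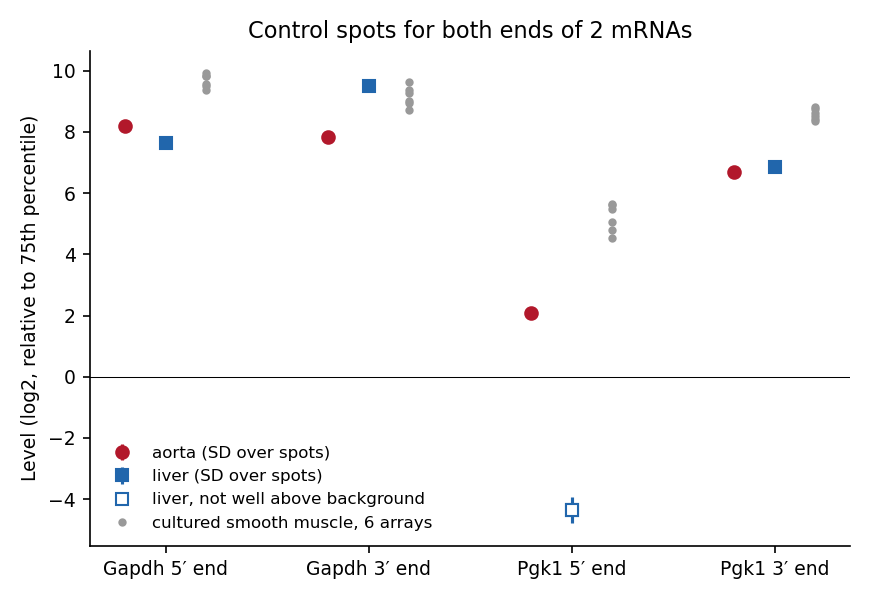
Levels of control spots for either end of the mouse Gapdh and Pgk1 transcripts, as log2 intensity relative to the array's 75th percentile, in aorta, liver and the 6 cultured arrays. Bars are the SD over spots, and the open square marks spots not well above background. Aorta is above liver at both 5′ ends, by 0.55 and by at least 5.61, and below it at both 3′ ends, with differences of -1.69 and -0.17, the second of which changes sign after scaling to the median or with no scaling.

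The maker's identifiers fall into 5 classes with at least 20 members, and 4 of them had a median difference below that of all members. The ASMM10P class held 43799 members of 58141 probes, nearly all of the array, and its median difference was -0.40. The humanlincRNA class had 521 members of 1104 probes. Of these, 4 (0.768%, against 12.3% of all members) were at least 4-fold higher in aorta and 119 (22.8%, against 13.3%) lower, and the median difference was -1.29. The mouselincRNA class had 311 members of 649 probes, with 4 (1.29%) higher, 52 (16.7%) lower and a median of -1.22. The MM9LINCRNAEXON class had 49 members of 83, with 0 higher, 11 (22.4%) lower and a median of -1.24. The ASMM10UP class had 437 members of 923, with 39 (8.92%) higher, 68 (15.6%) lower and a median of -0.94. The balance of its counts turned in the authors' deposited table, which holds fewer probes, with 49 higher and 42 lower. The ASMM10UP balance also turned with normexp (21 higher and 13 lower), with no scaling (69 and 11) and at 16-fold (12 and 4). It held under the other alternatives. The humanlincRNA, mouselincRNA and MM9LINCRNAEXON classes thus had few or no probes at least 4-fold higher in aorta. On this scale the shift covered most of their members. A difference below 0 was found for 443 of the 521 humanlincRNA, 253 of the 311 mouselincRNA and 37 of the 49 MM9LINCRNAEXON probes. Over all 45132 members the count was 26174. With no scaling the medians were -0.15 for humanlincRNA, -0.084 for mouselincRNA and -0.099 for MM9LINCRNAEXON, beside 0.63 over all members. The counts higher and lower were then 18 and 24, 15 and 8, and 4 and 2. The balance thus turned for mouselincRNA and MM9LINCRNAEXON.

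**Figure D4:**
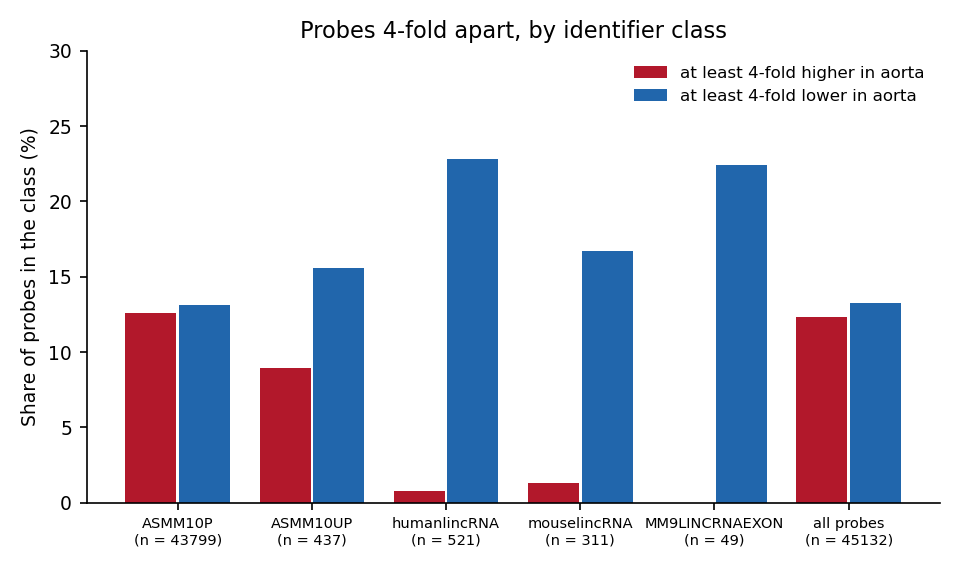
Share of members at least 4-fold higher in aorta and at least 4-fold lower in aorta, in percent, for each class of identifier and for all probes, with the number of members under each name. In the humanlincRNA class 0.768% were higher and 22.8% lower, beside 12.3% and 13.3% of all probes.

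Relative to the median of all members, the classes stood at -0.50 for ASMM10UP, -0.85 for humanlincRNA, -0.78 for mouselincRNA and -0.80 for MM9LINCRNAEXON. All 4 stayed below 0 in the 11 alternatives, from -0.56 to -0.16, from -1.002 to -0.18, from -0.89 to -0.18 and from -0.95 to -0.17, the smallest sizes being those without the filter on dim probes. Scaling to the median or to another 75th percentile moves the classes and all members alike. These alternatives left the relative medians unchanged and are no check on them. The same relative medians between 2 arrays of a cultured group had sizes up to 0.14 over 12 class and group pairs. These classes were dim. The median level was -2.94 in aorta and -1.75 in liver for humanlincRNA, with -3.77 to -3.47 in culture, and -3.01 in aorta and -1.90 in liver for mouselincRNA, with -3.74 to -3.42 in culture. All members had the same order, at -1.39 in aorta and -1.25 in liver, with -1.77 to -1.61 in culture, so the order is not particular to these classes. Members were admitted for their signal in aorta or liver, which by itself favours the tissues over the cultures. The liver array also had the highest floor of detection on this scale and the lowest 75th percentile, and the part of that floor in the class levels was not tested.

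The class shift was also present among brighter probes. In each of the 5 bins of mean level the humanlincRNA median was below that of all members, from -1.12 to -2.02. In the brightest bin, with 26 of these probes, it was -2.02, against -0.53 for all members. In the dimmest bin 84.1% of all members were bounds and their median was 0, so that bin hardly compares measured values. The mouselincRNA median was also lower in every bin, reaching -1.84 over 13 probes in the brightest. MM9LINCRNAEXON was lower in all 5 as well, but with only 14 probes in the dimmest bin and 4 in the brightest. ASMM10UP was lower in 4 of 5 bins and reached 0.27 in the brightest. Detection differed between the classes. Of the humanlincRNA members, 48 were well above background in aorta alone and 88 in liver alone, and of the mouselincRNA members 36 in aorta alone and 52 in liver alone. The ASMM10UP class was about even, with 73 in aorta alone and 76 in liver alone. The MM9LINCRNAEXON class went the other way, with 7 in aorta alone and 3 in liver alone, as did all members, with 7273 in aorta alone and 3155 in liver alone.

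Most lincRNA identifiers come as a pair that differs in a plus or minus sign, whose meaning is not stated in the files. Of 547 humanlincRNA pairs, both probes were well above background in 95 pairs in aorta and 114 in liver, and just 1 of the 2 in 239 pairs in aorta and 240 in liver. Both probes of 134 pairs were members, and in 102 of these both were lower in aorta, while in 2 both were higher. The median difference was -1.32 for the plus and -1.24 for the minus probes. Of 317 mouselincRNA pairs, 70 had both probes as members, with 48 lower at both and 0 higher at both, and the medians were -1.17 for plus and -1.25 for minus. In these 2 classes the medians of both signs were close. Of all members, 443 of 521 humanlincRNA and 253 of 311 mouselincRNA probes were lower in aorta. Many pairs lower at both probes follow from this class shift alone. The pair counts thus do not show that the 2 probes of a pair go together. The MM9LINCRNAEXON class had 5 pairs with both probes as members, 2 of them lower at both, and medians of -1.32 over 26 plus and -0.97 over 23 minus probes.

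Within the ASMM10P class, the difference between the tissues was not the same for low and high identifier numbers. What the numbers encode is not stated in the files, and the division at 10000 was chosen after the values were seen, so it is a description. Of 8139 members numbered below 10000, 1788 (21.97%) were at least 4-fold higher in aorta and 694 (8.53%) lower, with a median of 0.18. Of 35660 members numbered from 10000 to 58274, 3723 (10.4%) were higher and 5055 (14.2%) lower, with a median of -0.55. The medians were 0.73 apart, and 0.56 to 0.82 apart in the 11 alternatives. Scaling to the median or to another 75th percentile left this gap unchanged and is no check on it. Between 2 arrays of one cultured group, the same medians differed by -0.03 for Myocd, -0.07 for knockout and 0.21 for wild-type cells with empty virus. In blocks of 3000 numbers, the first 3 blocks had 20.4% to 24.8% of members higher in aorta, the block after them 14.1%, and the other 16 blocks 9.26% to 13.0%.

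**Figure D5:**
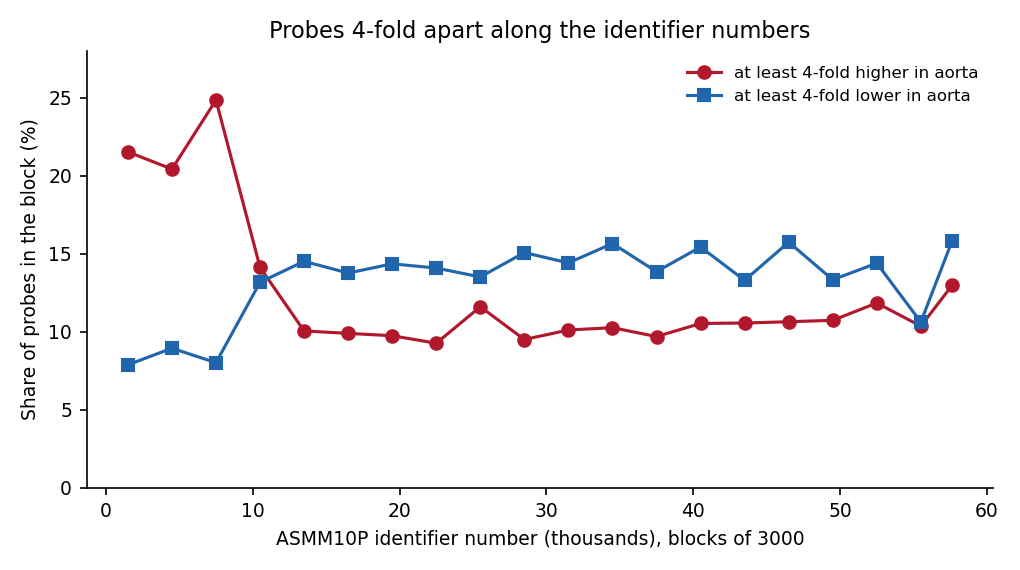
Share of ASMM10P members at least 4-fold higher in aorta and at least 4-fold lower in aorta, in percent, in blocks of 3000 identifier numbers. The first 3 blocks have 20.4% to 24.8% higher and 7.88% to 8.94% lower, and the last 16 have 9.26% to 13.0% higher and 10.6% to 15.8% lower.

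The low-numbered probes stood higher in cultured cells than the other ASMM10P probes did. Below 10000, 77.9% of probes were well above background in aorta, 61.0% in liver and 80.5% to 85.0% in culture. From 10000 on, these shares were 68.8% in aorta, 63.6% in liver and 67.4% to 74.1% in culture. The median level of the low-numbered members was -1.10 in aorta and -1.86 in liver, beside -0.78 to -0.33 in culture. That of the others was -1.38 in aorta and -1.09 in liver, beside -1.95 to -1.75 in culture. Each tissue was also set against the wild-type cultures with empty virus, over probes measured on both sides. The median of low-numbered probes was -0.59 for aorta (7285 probes) and -0.19 for liver (5654). That of the others was 0.22 for aorta (29432) and 1.06 for liver (26709). The probes kept differ between the tissues, so the aorta values cannot be set against the liver values. In both tissues the low-numbered probes thus lay lower against culture than the others did, which no scale factor changes, since it moves both alike.

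The probes that separated aorta from liver were set against the cultured aortic cells, which the choice of these probes did not use. Of the 5561 probes at least 4-fold higher in aorta, 93.8% were well above background on both arrays of the Myocd cells, 95.8% on both of the knockout cells and 93.7% on both of the wild-type cells with empty virus, against 84.2%, 88.7% and 85.2% of all members. Their median level in the wild-type cultures was 1.60 and 1.39, beside 1.15 in aorta and -2.64 in liver. All members had a median of -1.39 in aorta, so the shares well above background compare sets of unlike brightness. Of the 6000 probes at least 4-fold lower in aorta, 68.3% were well above background on both Myocd arrays, 75.2% on both knockout arrays and 70.5% on both wild-type arrays. Their median level in the wild-type cultures was -3.21 and -3.10, beside -2.49 in aorta and 0.51 in liver. By these medians, the cultured cells carried the aorta-side probes as a set at about the aortic level and the liver-side probes at low levels. Single probes could lie far from the set median, as ASMM10P040651 did above. By distance on the log2 scale, the mean of the Myocd cultures was nearer to aorta than to liver for 75.2% of the aorta-side probes and 92.8% of the liver-side probes, against 73.0% of all members. For the knockout cultures these shares were 78.6% and 93.0%, against 73.9%, and for the wild-type cultures 75.2% and 93.3%, against 73.1%. The share for the aorta-side probes lay near that of all members, and the share for the liver-side probes above it. The liver-side probes were chosen for a liver level at least 4-fold above that of aorta. Of these 6000, 1340 were not well above background in aorta. A low level in culture is nearer to aorta by this choice, so the higher share does not by itself show likeness to aorta.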

How the data were processed

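One-colour Cy3 arrays of 8 mouse RNA samples were used, with 1 array each for aorta and liver. Per the file headers, the authors scanned an mm9 array design with Agilent Feature Extraction 11.0.1.1, which writes a processed intensity, background-corrected by that software, for each spot with flags for background, saturation and outliers. Software and version are also in the submitters' processing notes. A second file that the authors deposited gives log2 values of 42995 probes, each called well above background on at least 4 arrays. Its normalization and centring are not given in the sources used here. Its column median is 7.21 for aorta and 7.16 for liver, its columns run in the direction of the scanner values, and it served as an alternative. It holds none of the 15 RefSeq probes.

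The 61500 spots outside the controls gave 60915 probes after 15 negative probes were left out. Outlier spots were dropped, spots of a probe averaged on the log2 scale and the array's 75th percentile subtracted. A probe without a value on either tissue array (32 probes) was left out. Python 3.11.15, pandas 2.3.3, R 4.3.3 and limma 3.58.1 (quantile normalization and normexp with an offset of 50) were used. The code was tested on simulated data. The planned normexp input, a mean spot signal, is not in the files used here, and the median spot signal replaced it. No test was run between the tissues. A count of differences used 4-fold as its threshold, with 2-, 8- and 16-fold as alternatives beside other scalings, filters and sources. Gene names came from RefSeq accessions through a table built on GRCm38.p6, which matched 15 of 15. All identified genes are named, since these were under 30, and of the other probes at most 2 identifiers per direction, those with the largest difference measured in both tissues. The members and the lists were chosen with earlier results of these data known. The number of arrays limits the precision.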

Additional observations from a re-analysis of the deposited data

How the results depend on the processing

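No paired analysis was possible because each tissue had 1 array. In all, 472 values under alternatives were computed, of which 347 stayed close to the reported value, 114 moved beyond the yardstick and 11 changed sign. The yardstick was 0.29 for differences, the largest SD per array among the cultured pairs, and a fixed ratio for counts. Many outcomes were set beforehand. Filters on dim probes could not move the genes, other scale factors could not move relative medians, and other fold thresholds must change counts. The tally is thus no measure of how firm the results are. With no scaling, the median difference turned to 0.63 over all members, 0.65 for ASMM10P, 0.19 for ASMM10UP and 0.74 for the common reference genes, and shrank to -0.15 for humanlincRNA, -0.084 for mouselincRNA and -0.099 for MM9LINCRNAEXON, since the aorta array was the brighter by 1.14. Gk (0.12), Ppia (0.64) and Rpl13a (0.74) turned with it. The probes at least 4-fold higher and lower in aorta were then 10523 and 1821 over all members, 69 and 11 for ASMM10UP, 18 and 24 for humanlincRNA, 15 and 8 for mouselincRNA, and 4 and 2 for MM9LINCRNAEXON. Quantile normalization of both tissues gave 0.91 for the reference genes and for Ppia, and that of all 8 arrays 0.76 for each, with 9 humanlincRNA probes higher in aorta (8 with median scaling). Normexp gave fewer differences, 5693 in all, with 3116 higher and 2577 lower. By class it gave 21 higher and 13 lower for ASMM10UP, 1 and 35 for humanlincRNA, 2 and 10 for mouselincRNA, and 4 lower for MM9LINCRNAEXON, with medians of -0.97 for humanlincRNA and -0.91 for MM9LINCRNAEXON. Relative to all members, these classes stood at -0.48 and -0.42 under normexp, and mouselincRNA at -0.46. The authors' deposited table gave 49 ASMM10UP probes higher and 42 lower, which turns the balance of that class, as did normexp, no scaling and the 16-fold threshold. With probes well above background in both tissues, fewer probes remain: 3493 higher in all, 21 higher and 40 lower for ASMM10UP, and 1 humanlincRNA probe higher. Without a filter, the median was -0.76 over all probes, -0.71 for ASMM10P, -0.94 for humanlincRNA and -0.93 for MM9LINCRNAEXON. The medians relative to all were then -0.16 for ASMM10UP, -0.18 for humanlincRNA, -0.18 for mouselincRNA and -0.17 for MM9LINCRNAEXON, and 85 mouselincRNA probes were lower. With measured differences in place of bounds, 13 humanlincRNA and 8 mouselincRNA probes were higher. At 2-fold, 25996 probes differed, 9745 higher and 16251 lower, with 67 and 209 for ASMM10UP, 15 and 321 for humanlincRNA, 14 and 177 for mouselincRNA, and 3 and 27 for MM9LINCRNAEXON. At 8-fold, 4966 differed, 2933 higher and 2033 lower, with 16 and 17 for ASMM10UP, 1 and 30 for humanlincRNA, 1 and 8 for mouselincRNA, and 2 lower for MM9LINCRNAEXON. At 16-fold, 2454 differed, 1474 higher and 980 lower, with 12 and 4 for ASMM10UP, 1 and 7 for humanlincRNA, 0 and 2 for mouselincRNA, and 1 lower for MM9LINCRNAEXON. Called by the positive-and-significant flag, 8.98% of probes so flagged in at least 1 tissue were detected in aorta alone and 4.99% in liver alone. Beyond what fewer probes, other thresholds or the array brightness set by construction, the cause of these changes was not tested. The dim signal of the liver array limits what could be read there.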

Other observations

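Signal was more concentrated in the tissues than in the cultured cells. The 10 brightest probes carried 2.35% of the processed intensity in aorta, 2.94% in liver and 1.69% to 1.87% in the 6 cultured arrays. The 100 brightest carried 15.8% in aorta, 21.2% in liver and 13.4% to 14.1% in culture. The 1000 brightest carried 62.0% in aorta, 73.3% in liver and 59.5% to 63.3% in culture, so that aorta lay within the cultured range at this depth and liver above it.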
